A study of Saccharomyces cerevisiae with 6 samples.

Results

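The genes described here are the cytosolic ribosomal protein genes of Saccharomyces cerevisiae that lie outside chromosome XII. They were chosen by name, as RPL or RPS followed by a number and an optional copy letter, or RPP for the acidic stalk proteins, and by a systematic name that does not place them on chromosome XII. The rule found 119 of the 137 cytosolic ribosomal protein genes among the 6388 genes of the deposited tables, and the other 18 lie on chromosome XII. Of the 119, 67 encode proteins of the large subunit outside the stalk, 48 encode proteins of the small subunit and 4 encode stalk proteins. The rule itself uses names and positions and no measured value.

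The study asked how loss of KNR4 changes the transcripts of a wine yeast during alcoholic fermentation. Each of 6 two-colour spotted arrays set RNA of EKD-13, a recombinant of the industrial wine strain EC1118 from which both copies of the gene KNR4 were removed, against RNA of wildtype EC1118. Both strains grew at 28 °C in MS300, a synthetic grape-must medium, and were taken when 10 g of CO2 had been released (mid-exponential phase) or 70 g (stationary phase), with 3 arrays a phase. EKD-13 carried the Cy5 dye except on array 2 of either phase, where it carried Cy3, and each array paired 2 separate fermentation vessels. A single deletion strain was used, so a change made by the deletion and one that this strain carries besides cannot be told apart.

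All values below are log2 ratios of EKD-13 over EC1118, written as the ratio on arrays 1, 2 and 3 of a phase or as the mean ± SD over those arrays. The deleted gene checks this direction: the authors' deposited table put KNR4 at -1.89 in mid-exponential and -1.74 in stationary phase. KNR4 had a ratio on 1 array only, -4.51 on mid-exponential array 3. A usable ratio was found for 112 of the 119 genes, of which 106 had one on at least 2 arrays of each phase and were tested, and 100 had one on all 6 arrays. The other 7 (RPS7A, RPS9A, RPS17A, RPS18B, RPS19B, RPL18B and RPL21B) had been printed from wells whose gene names could not be relied on. In the authors' deposited table these 7 ran from -0.26 to 0.07 in mid-exponential and from -0.18 to 0.13 in stationary phase, and 0 were called. Precision is limited by the number of arrays. Of the 10 haploid-cell and 7 sporulating-cell markers examined, 0 were called in the authors' deposited table in either phase, and too few carried ratios for more to be said.

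Ribosomal proteins are the protein part of the ribosome, which reads messenger RNA in the small subunit and joins amino acids in the large one. Most of them are encoded in budding yeast by a pair of paralogues, an A and a B copy left by the ancient duplication of the genome, whose proteins are identical or nearly so. Transcription of the whole family is set together by Rap1, Fhl1, Ifh1, Sfp1 and Hmo1 under the TOR and protein kinase A pathways, is high in growing cells and drops when nutrients run out. Because the paralogues are so alike in sequence, a spot for one copy can also bind labelled cDNA of the other, and how far it did so was not tested.

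In mid-exponential phase the family was almost level between the strains. The median over the measured genes was -0.03, -0.09 and 0.01 on the 3 arrays, a mean of -0.037 ± 0.051. The same mean was -0.015 ± 0.015 for all 4289 genes tested and -0.049 ± 0.023 for the 3930 of them outside chromosome XII. The middle of the family was also narrow: 104 of the 106 tested genes (98.1%) had a mean within 0.5 of 0, against 76.4% of all genes tested. The genes varied less between arrays than most, with a median SD of 0.11 against 0.23 over all genes tested. They were also among the brightest on the arrays, and the authors' deposited table put 116 of the 119 in the top decile of mean log2 intensity. With limma, 0 of the 106 passed at an adjusted p of 0.05, where 0.21% of all genes tested did. An unadjusted limma p below 0.05 was found for 4 (RPS30B, RPS1B, RPL6A and RPL7B), or 3.77%. That share was 13.3% of all genes tested and 9.67% of those outside chromosome XII.

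In stationary phase the family was less even. The medians were 0.35, -0.05 and 0.01, a mean of 0.10 ± 0.21, so that array 1 stood apart from arrays 2 and 3 in the family median. Over all tested genes with a ratio on all 6 arrays, it was array 2 that differed. It correlated with arrays 1 and 3 at r = 0.15 and 0.01, where arrays 1 and 3 correlated at r = 0.58. On array 1, 85.4% of the measured genes were above 0, against 41.7% on array 2 and 51.8% on array 3. The median of all genes tested was 0.05, -0.04 and 0.03 on the same arrays, and that of those outside chromosome XII 0.00, -0.08 and -0.03. Of the 106 tested genes 89 (84.0%) had a mean within 0.5 of 0, against 62.0% of all genes tested, and the median SD over arrays was 0.29 against 0.45. In this phase 1 of the 106 passed in limma, RPS30B, where 4.76% of all genes tested did. An unadjusted limma p below 0.05 was found for 13, or 12.3%. The same held for 1029 of all 4289 genes tested and for 835 of the 3930 outside chromosome XII. The authors' deposited table put 54 of the 119 in the top decile of intensity here, and the median log2 intensity of the family was 9.01 against 11.7 in mid-exponential phase. Over all genes that median was 7.49 against 7.93. The phases were hybridized to separate arrays, and a change of abundance between them was not tested.

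**Figure D1:**
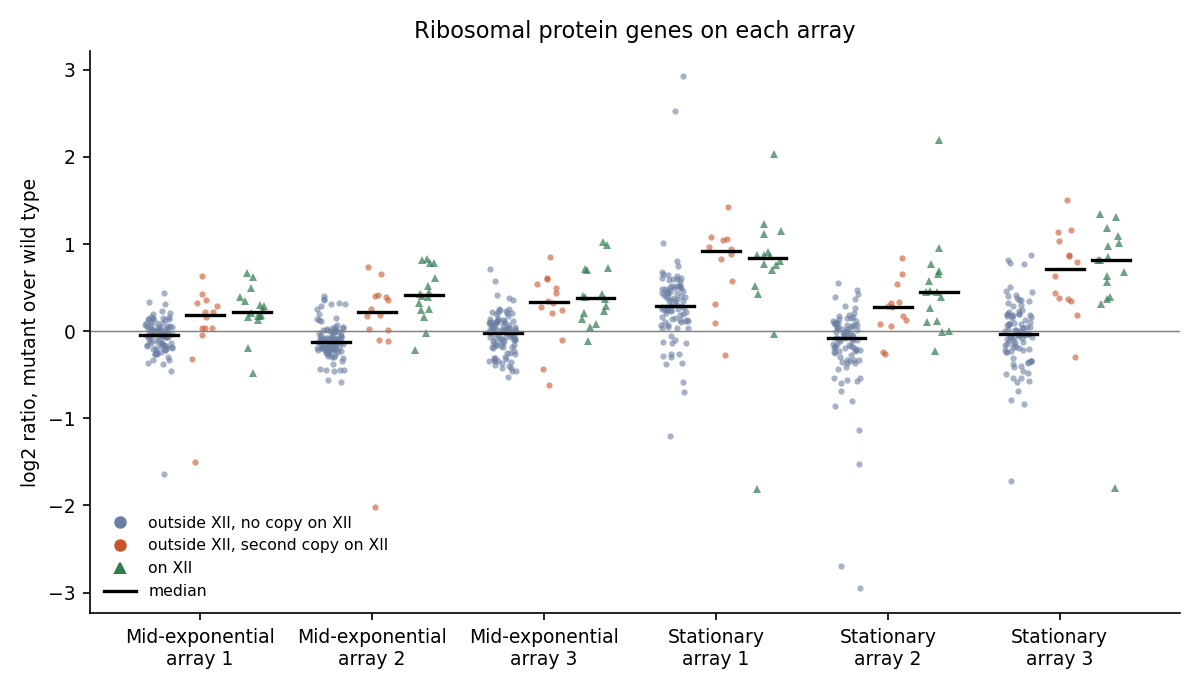
Log2 ratio of EKD-13 over EC1118 (vertical axis) for each ribosomal protein gene on each of the 6 arrays (horizontal axis), with the medians as bars. Blue points are genes outside chromosome XII with no copy on it, orange points those whose second copy lies on it, and green triangles the ribosomal protein genes on chromosome XII. The orange median is above the blue one on every array, and the blue median of stationary array 1, at 0.29, is the highest of the 6.

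RPS30B encodes a small-subunit protein whose other copy, RPS30A, lies on chromosome XII. Its ratios were 0.63, 0.66 and 0.85 in mid-exponential phase and 1.43, 0.84 and 1.50 in stationary phase. It was above 0 on all 6 arrays, and its stationary ratios all lay at or above 0.84, close to the highest mid-exponential one. RPS30B rose by 1.26 ± 0.37 in stationary phase (n = 3), 2.39-fold, with a limma adjusted p of 0.028, and in mid-exponential phase the mean of 0.71 ± 0.12, 1.64-fold, had a limma adjusted p of 0.18. The stationary call was lost when mid-exponential array 1, 2 or 3 was left out of the shared limma estimate of spread, with adjusted p of 0.090, 0.071 and 0.098. It was also lost without stationary array 1 or 3, with limma adjusted p of 0.061 and 0.064, and each time the value stayed above 1. The authors' deposited table called RPS30B higher in both phases, at 0.69 and 0.86.

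The 14 genes whose second copy lies on chromosome XII were set apart after the values had been seen, so what follows describes them and tests nothing. Their array medians were 0.19, 0.22 and 0.34 in mid-exponential phase and 0.92, 0.28 and 0.72 in stationary phase. The 98 measured genes with no copy there had medians of -0.04, -0.12 and -0.02, then 0.29, -0.08 and -0.03. The difference between the groups was above 0 on each of the 6 arrays, with a mean of 0.31 ± 0.07 in mid-exponential and 0.58 ± 0.20 in stationary phase. The ribosomal protein genes on chromosome XII itself had a mean of array medians of 0.34 ± 0.10 and 0.70 ± 0.22. All 359 tested genes of that chromosome had 0.68 ± 0.10 and 0.70 ± 0.25, so in mid-exponential phase its ribosomal protein genes had a lower median than the chromosome as a whole.

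Counts of genes above 0 on all 3 arrays show the same split. In mid-exponential phase 9 of the 13 tested genes with a copy on chromosome XII were above 0 on all 3 arrays and 0 were below. With RPL22B, measured on these 3 arrays but not tested for want of stationary ratios, 9 of 14 were above and 1 was below. Of all genes tested and on 3 arrays, 24.9% were above and 26.0% below. Of the 93 tested genes without a copy on chromosome XII 12 were above on all 3 and 37 were below. Outside chromosome XII, 749 of the 3781 tested genes on 3 arrays were above and 1068 below. In stationary phase 11 of 12 with such a copy were above and 1 was below, where the shares over all genes were 19.5% and 19.9%. Of 88 without one 15 were above and 9 below. Outside chromosome XII, 443 of the 2822 tested genes on 3 stationary arrays were above and 607 below. Of the 13 tested genes with such a copy, 8 had an unadjusted limma p below 0.05 in stationary phase, of 13 in the whole family. The same held for 1029 of all 4289 genes tested and for 194 of the 359 on chromosome XII.

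RPS1B, which encodes a small-subunit protein near the exit of the messenger RNA channel, had 0.32, 0.74 and 0.59 in mid-exponential and 1.08, 0.32 and 0.86 in stationary phase. It was above 0 on every array, and its stationary mean of 0.75 ± 0.39 had a limma adjusted p of 0.085. RPS22A, another small-subunit gene, had 0.04, 0.19 and 0.35, then 0.83, 0.54 and 0.87. Its stationary ratios did not overlap its mid-exponential ones, and with a stationary mean of 0.74 ± 0.18 it came closest to the threshold after RPS30B, at a limma adjusted p of 0.054. RPL26B, whose protein sits at the mouth of the peptide exit tunnel, had 0.22, 0.40 and 0.61, then 1.05, 0.28 and 1.03, and its stationary mean of 0.79 ± 0.44 had a limma adjusted p of 0.085. Stationary array 2 was the lowest of the 3 for each of RPS30B, RPS1B, RPS22A and RPL26B. Without it RPS1B, RPS22A and RPL26B passed in limma, with adjusted p of 0.033, 0.034 and 0.027. It was the only stationary array with the dyes exchanged, so without it EKD-13 carried Cy5 on each stationary array. Strain and dye cannot then be told apart in that phase.

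RPL37B, of the large subunit, had 0.22, 0.25 and 0.44, then 1.06, 0.33 and 0.37. RPL15B had 0.03, 0.40 and 0.50, then 0.97, 0.09 and 1.16, and RPS29B had 0.28, 0.18 and 0.28, then 0.94, 0.18 and 0.80. These 3 genes were above 0 on all 6 arrays, with stationary array 2 the lowest stationary ratio of each. RPL6A had 0.42, 0.35 and 0.54 in mid-exponential phase, an SD of 0.09, and 0.31, 0.05 and 0.38 in stationary phase. Its mid-exponential ratios lay above those of its stationary arrays 1 and 2, unlike RPS22A. RPS0A, whose protein is needed to mature the RNA of the small subunit, had 0.35, 0.41 and 0.24 in mid-exponential phase and, on the stationary arrays 2 and 3 that measured it, -0.23 and 1.14. RPL31A had 0.16, -0.10 and 0.33, then 0.58, 0.13 and 0.44, and RPS28A had -0.04, 0.02 and 0.21, then 0.89, 0.28 and 0.35.

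There were 3 exceptions to the high values in this group. RPL22B, the minor copy of its pair, had -1.51, -2.02 and -0.62 in mid-exponential phase, the lowest mean of the family at -1.38 ± 0.71. RPL22B was dim for this family, with a mean log2 intensity of 7.89 there in the authors' deposited table. The medians were 11.7 for the family and 7.93 for all genes. RPL22B had a single stationary ratio, 0.63 on array 3, and so was not tested. The authors' deposited table called RPL22B lower in mid-exponential phase, at -0.63, and listed it at 0.00 in stationary phase. RPL8A had -0.32, 0.03 and -0.10, then -0.27, -0.26 and -0.30, and was the single gene of the group below 0 on all 3 stationary arrays. Its copy on chromosome XII, RPL8B, had -0.47, 0.83 and -0.11, then -1.81, 2.20 and -1.80, and stood above 0 only on the arrays with the strain dyes exchanged. RPS25A had 0.04, -0.12 and -0.43, then 0.09, 0.65 and 0.18.

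Set against their own partners, most of these genes had a mean near that of the copy on chromosome XII. In mid-exponential phase the median absolute difference between the copies was 0.14 over 12 pairs, and 10 of the 12 differed by under 0.25. In stationary phase it was 0.18 over 11 pairs. Differences were averaged over arrays with their sign before their size was taken. RPL8, at 0.16, -0.80 and 0.01, is thus among the 10, and its stationary differences of 1.54, -2.46 and 1.51 averaged 0.20. Unrelated genes were not compared, and shared labelled cDNA was not tested. RPS30B lay above RPS30A on each stationary array, by 0.56, 0.26 and 0.88, whereas in mid-exponential phase neither copy led on all 3 arrays. RPL37B lay below RPL37A on each mid-exponential array, by a mean of 0.21 ± 0.05, and RPS1B lay above RPS1A there. For RPL22 the copy on chromosome XII, RPL22A, stood at -0.11 ± 0.16 in mid-exponential phase, above RPL22B on each array.

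**Figure D2:**
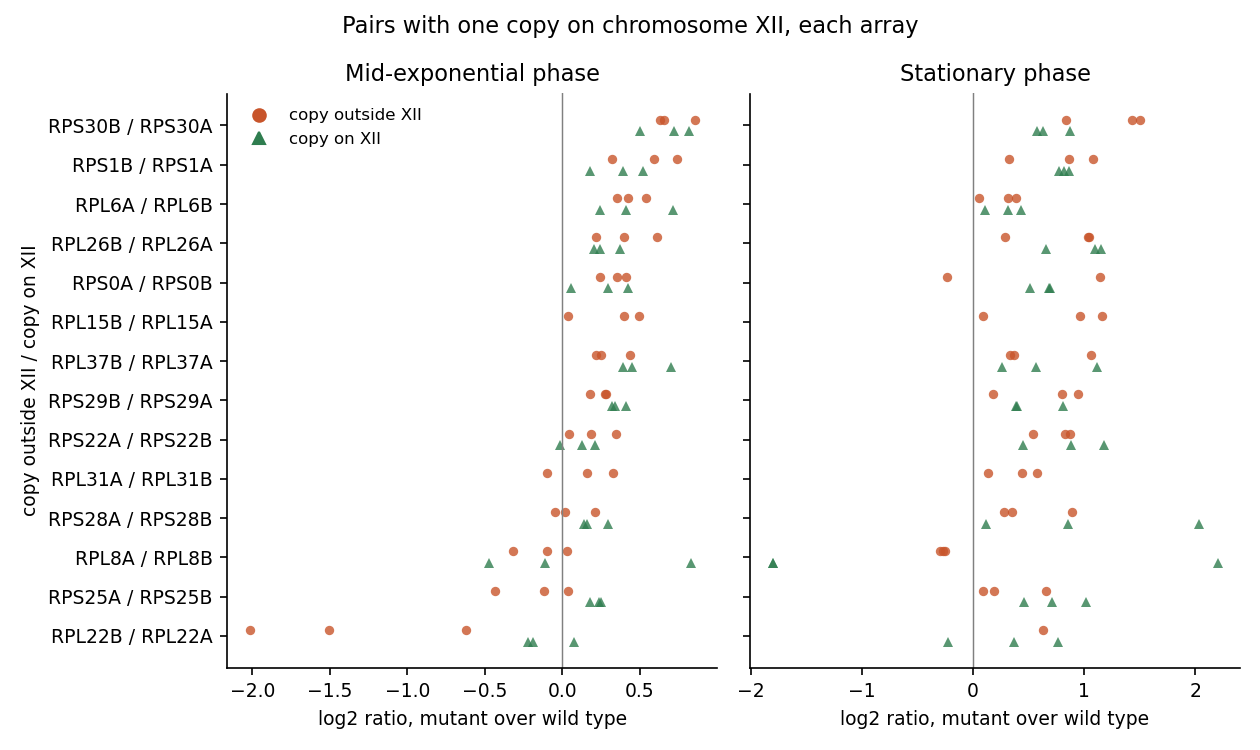
Log2 ratio of EKD-13 over EC1118 (horizontal axis) on each array for the 14 pairs with a copy on chromosome XII, with the left panel for mid-exponential and the right for stationary phase. Orange points are the copy outside chromosome XII and green triangles the copy on it, and RPL15A and RPL31B had no usable ratio. Most points of both copies lie to the right of 0. Exceptions include RPL22B in mid-exponential phase, where it reached -2.02, RPL22A and RPS25A in that phase, and RPL8A and RPL8B.

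RPL4A and RPL4B encode the protein whose long loop lines the exit tunnel. RPL4A had 0.34, 0.32 and 0.58 in mid-exponential phase, and RPL4B had 0.43, 0.31 and 0.72. Both copies were above 0 on each of these arrays, but in stationary phase RPL4B had -0.70, 0.03 and 0.78 and RPL4A -0.38, -0.08 and 0.87. Their limma adjusted p was 0.56 and 0.53 in mid-exponential phase, where the authors' deposited table called both higher, at 0.38 and 0.40.

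At the low end of mid-exponential phase stood RPL7B, with -0.33, -0.58 and -0.42, and RPL13A, with -0.37, -0.37 and -0.46. RPL13B had -0.27, -0.43 and -0.39 there and was low in stationary phase as well, at -0.26, -0.36 and -0.83. RPL13B was thus below 0 on all 6 arrays, while RPL13A had 0.19, 0.10 and -0.53 in stationary phase. RPL36B had -0.37, -0.45 and -0.25, then 0.04, -0.56 and -0.58. The limma adjusted p of these 4 was between 0.32 and 0.46 in mid-exponential phase, and the authors' deposited table called each of them lower there, at -0.46 for RPL7B, -0.40 for RPL13A, -0.35 for RPL13B and -0.36 for RPL36B. RPL1A, of the mobile stalk that guides spent transfer RNA out, had -0.46, -0.17 and -0.35, then 0.62, 0.03 and 0.08, with no overlap between the phases.

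In stationary phase RPL17B, whose protein also lines the exit tunnel, had -0.28, -0.86 and -0.69 after -0.06, -0.07 and -0.31 in mid-exponential phase. It was below 0 on all 6 arrays, and its stationary mean of -0.61 ± 0.30 had a limma adjusted p of 0.10. RPL39, a single-copy gene for a small protein of the same tunnel, had -0.05, 0.35 and 0.01, then 1.02, 0.43 and 0.51. The stationary ratios of RPL39 lay above all 3 mid-exponential ones, its stationary mean of 0.65 ± 0.32 had a limma adjusted p of 0.10, and the authors' deposited table called it higher at 0.45. RPL39 (YJL189W), RPS22A (YJL190C) and RPS14B (YJL191W) have consecutive systematic names on chromosome X. RPS14B did not share the high stationary ratios of the other 2, with 0.25, 0.10 and -0.45, a mean of -0.04 ± 0.37. RPL41A and RPL41B, for a very short peptide that bridges the subunits, had -0.37, -0.19 and -0.57 and -0.29, -0.17 and -0.49 in stationary phase. They were the 2 genes of the family that the authors' deposited table called lower there, at -0.34 and -0.32.

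Some of the extreme stationary means rested on 1 array. RPL14A had 2.53, -0.23 and -0.03, and without array 1 its mean turned from 0.76 to -0.13. RPL43B had 0.68, -2.70 and 0.23, and without array 2 its mean turned from -0.60 to 0.45. RPL16B had 0.15, -1.53 and -0.38. RPL5, whose protein carries the small ribosomal RNA of the large subunit into the ribosome, had -1.20, -0.33 and 0.15 after 0.20, 0.29 and 0.24. Outside the naming rule, and picked for their values, RPL34B had 2.93 and -0.03 on the 2 stationary arrays that measured it, and RPL3 had -2.94 and 0.82.

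Among small-subunit genes with no copy on chromosome XII, 0 of 32 tested passed in limma in either phase, with 0 and 2 at an unadjusted p below 0.05 (570 and 1029 of all 4289 genes tested), and the authors' deposited table called 1 of 36 measured lower in mid-exponential and 0 in stationary phase. RPS10A had -0.17, -0.21 and 0.13, then 0.81, 0.29 and 0.42, and the phases did not overlap. RPS10B had 0.02, 0.00 and 0.39, then 0.60, 0.15 and 0.45. RPS15, a single-copy gene for a protein near the decoding site, had 0.23, 0.00 and -0.08, then -0.59, -0.37 and -0.35. Its phases did not overlap either, with the stationary ratios the lower ones, and its stationary mean of -0.43 ± 0.13 had a limma adjusted p of 0.15. RPS26B had -0.21, -0.31 and -0.52, then -0.10, -0.80 and -0.40 and was below 0 on all 6 arrays. RPS4B had -1.64, 0.41 and -0.32 and a single stationary ratio of -1.72, while RPS4A kept between -0.16 and 0.25 on all 6 arrays. RPS4B was dim, with a mean log2 intensity of 7.02 in mid-exponential phase in the authors' deposited table, against 11.7 for RPS4A.

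Compared by subunit, the family showed little difference. The median of the large-subunit genes minus that of the small-subunit genes was -0.02, 0.00 and -0.08 in mid-exponential phase, a mean of -0.034 ± 0.042. In stationary phase it was -0.05, -0.03 and -0.05, a mean of -0.046 ± 0.013. The large subunit lay lower on all 6 arrays, by less than the range of the array medians themselves. Of the 14 genes with a copy on chromosome XII, 7 belong to each subunit, which is a larger share of the smaller group. With those genes left out the difference was -0.035 ± 0.039 and -0.025 ± 0.003.

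The 4 stalk genes encode the acidic proteins that recruit translation factors to the large subunit. RPP1A had 0.10, 0.26 and 0.22 in mid-exponential phase, and RPP1B had -0.06, -0.25 and -0.26. These 2 genes did not overlap there, although their limma adjusted p was 0.68 each. RPP2A had -0.11, -0.08 and -0.07 and RPP2B had 0.00, -0.09 and 0.03. In stationary phase RPP2B had the highest mean of the 4, 0.37 ± 0.24, followed by RPP1B at 0.23 ± 0.23, RPP1A at -0.04 ± 0.24 and RPP2A at -0.12 ± 0.25, and neighbours in that order differed by about their spread or less. RPP0, the protein that anchors the stalk, is encoded on chromosome XII.

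The paralogue pairs with both copies outside chromosome XII mostly differed little, but so did the family. The means of their tested genes had an interquartile range of 0.20 in mid-exponential and 0.24 in stationary phase. Pairs of unrelated genes of the family were not compared, so closeness particular to paralogues was not tested. There are 43 such pairs, of which 36 had both copies on at least 2 mid-exponential arrays and 32 on at least 2 stationary arrays. The median absolute difference between copies was 0.084 in mid-exponential phase, where 35 of 36 pairs differed by under 0.25, and 0.073 in stationary phase, where 25 of 32 did. On single arrays, the 2 printed spots of a gene differed by a median of 0.027 to 0.037 in mid-exponential and 0.071 to 0.12 in stationary phase. The pair differences were averaged over arrays with their sign before their size was taken, so the 2 measures are not alike. Across pairs the copies correlated at r = 0.69 in mid-exponential (36 pairs) and 0.45 in stationary phase (32 pairs), where points share arrays and can share labelled cDNA.

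A difference between copies with the same sign on all 6 arrays was seen in 2 of 28 pairs. RPS16A lay below RPS16B by 0.24, 0.27 and 0.18 in mid-exponential and by 0.34, 0.22 and 0.21 in stationary phase. This was the steadier pair, with a mean A minus B difference of -0.23 ± 0.05 and -0.26 ± 0.07. RPL42A lay below RPL42B by smaller amounts, with means of -0.05 ± 0.04 and -0.23 ± 0.11. RPS10A minus RPS10B was -0.22 ± 0.04 in mid-exponential but 0.10 ± 0.12 in stationary phase. RPL13A minus RPL13B was -0.04 ± 0.09, then 0.40 ± 0.09, the widest stationary gap among pairs whose copies did not rest on 1 array. In mid-exponential phase RPS26A lay above RPS26B by 0.24 ± 0.10, and RPL11A, whose protein enters the ribosome together with that of RPL5, lay below RPL11B by 0.21 ± 0.17. The largest mid-exponential value, 0.45 ± 1.14 for RPS4, changed sign between arrays. In stationary phase the differences of 0.67 ± 1.38 for RPL14, 0.72 ± 1.52 for RPL43 and 0.46 ± 0.78 for RPL16 each rested on 1 array, and RPL19A minus RPL19B was -0.39 ± 0.39.

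**Figure D3:**
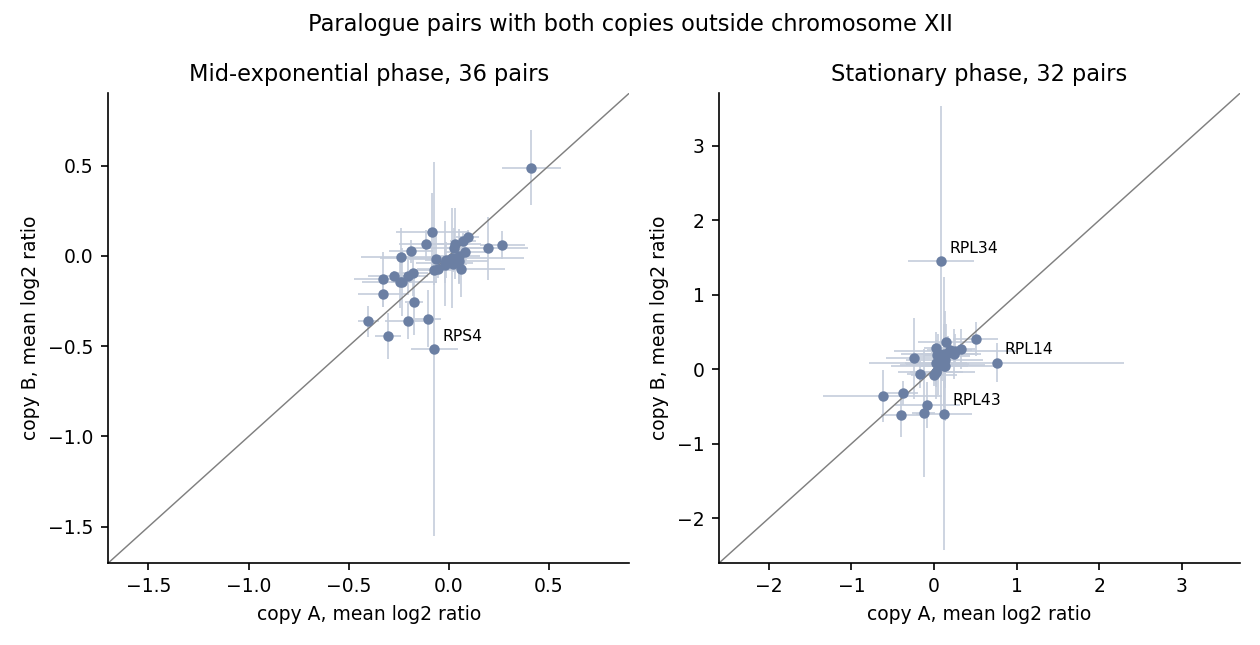
Mean log2 ratio of copy B (vertical axis) against copy A (horizontal axis) for pairs with both copies outside chromosome XII, in mid-exponential (left) and stationary phase (right). Bars are SDs over the arrays that measured the gene and the line marks equal values. Most pairs lie close to the line, and the labelled ones, such as RPS4 at a mean difference of 0.45, have a wide bar on 1 copy.

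The difference between phases, stationary minus mid-exponential, was fitted for each gene. By limma 0 of the 106 tested genes passed, where 0.117% of all genes tested did, and RPS22A alone had an unadjusted p below 0.05, against 12.8% of all genes tested. Among the 100 genes measured on every array, the largest differences were 0.94 for RPL14A, which rested on 1 array, then 0.59 for RPS10A, 0.57 for RPL1A, 0.55 for RPS22A and 0.55 for RPL39. The most negative among those 100 were -0.70 for RPL5, -0.59 for RPL43B, -0.49 for RPS15, -0.47 for RPL17B and -0.45 for RPL4B. Their limma adjusted p ran from 0.37 for RPS22A to 0.80 for RPL43B. RPS22A, RPL1A, RPL39, RPS10A and RPS15, described above as not overlapping between phases, are all among these genes picked for wide differences. How many of all genes showed no overlap was not counted. RPL34B and RPL3, with 2 stationary ratios each, had wider differences of 1.37 and -1.09.

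**Figure D4:**
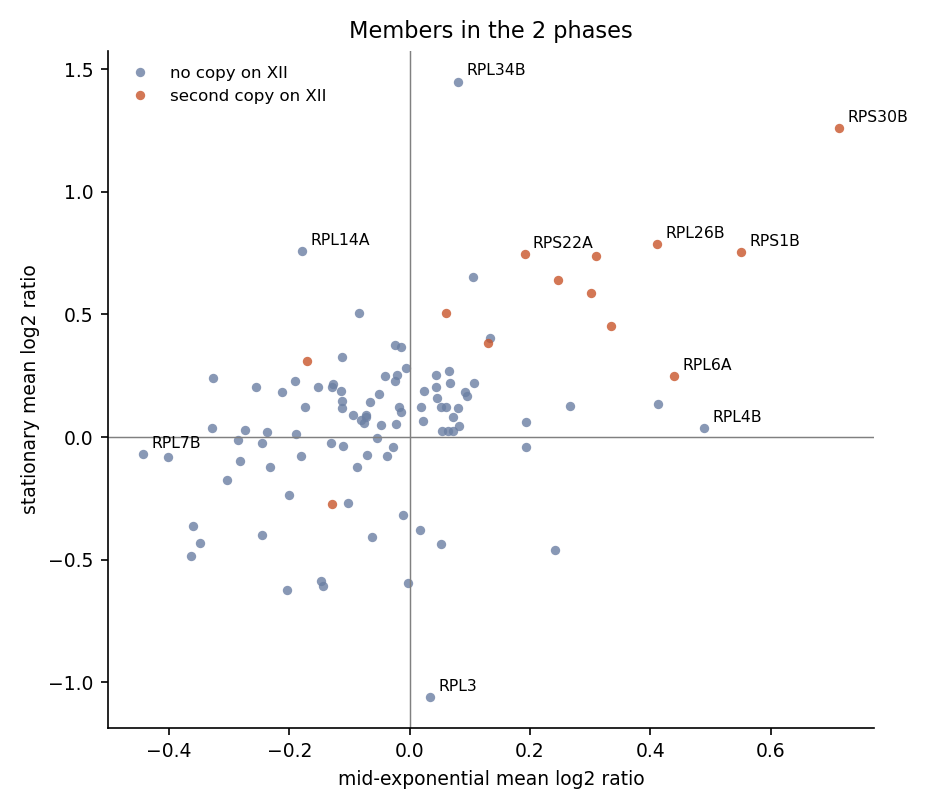
Stationary mean log2 ratio (vertical axis) against mid-exponential mean (horizontal axis) for the 106 tested genes, orange where the second copy lies on chromosome XII. RPS30B stands at the upper right, at 0.71 and 1.26, and RPL34B, RPL14A and RPL3 owe their places to 1 array.

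The authors' deposited table, made from the same arrays with all 119 genes listed, called more of them. In mid-exponential phase the authors' deposited table called 6 higher and 8 lower, where it called 5.67% of all genes higher and 4.63% lower. The 5 highest there were RPS30B at 0.69, RPS1B at 0.42, RPL4B at 0.40, RPL4A at 0.38 and RPS0A at 0.36, and of the 6 called higher 4 had a copy on chromosome XII. In stationary phase the authors' deposited table called 6 higher and 2 lower, against 2.04% and 2.14% of all genes. The 5 highest in the authors' deposited table were RPS30B at 0.86, RPL26B at 0.57, RPS1B at 0.57, RPL37B at 0.50 and RPS22A at 0.49, each with a copy on chromosome XII, and the other was RPL39. Of the 86 genes whose second copy lies elsewhere, the authors' deposited table called 2 higher and 6 lower in mid-exponential and 0 higher and 2 lower in stationary phase.

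Of the regulators of the family, 5 of 6 were tested and 1 passed, in stationary phase. CRF1, described as a corepressor that takes the place of Ifh1 when TOR is inactive, had -2.05, -1.67 and -0.53, then -2.10 and -3.05 on the 2 stationary arrays that measured it. CRF1 fell by 2.58 ± 0.67 there (n = 2, limma adjusted p = 0.042), but the authors' deposited table listed it at -0.21 in that phase and did not call it. In mid-exponential phase the authors' deposited table called CRF1 lower, at -0.41. RAP1 had -0.11, -1.25 and 0.24, then 1.53 and 1.05 on 2 arrays, with limma adjusted p of 0.71 and 0.14. The authors' deposited table listed RAP1 at -0.11 and -0.03 and called it in neither phase. FHL1 had means of -0.12 ± 0.34 and 0.12 ± 0.13. HMO1 had -0.03 ± 0.12 in mid-exponential and -0.80 ± 0.75 in stationary phase, with a limma adjusted p of 0.16 in the latter, where the authors' deposited table called it lower at -0.41. IFH1, on chromosome XII, had 0.20, 1.92 and -0.27, then -0.17, -0.28 and 0.01. SFP1, also on chromosome XII, had no usable well, and the authors' deposited table called it higher in mid-exponential phase at 0.47.

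Genes that serve ribosomal proteins were counted from lists. In mid-exponential phase 0 passed in limma among 10 tested genes of TOR and protein kinase A signalling, 8 dedicated chaperones, 44 ribosome assembly factors, 8 subunits of RNA polymerase I and 24 translation factors and ribosome-bound proteins, with 0, 1, 6, 0 and 2 at an unadjusted p below 0.05, against 13.3% of all genes tested. In the same order, the authors' deposited table called 0, 0, 3, 0 and 2 higher and 1, 1, 3, 0 and 1 lower in that phase, among them RRB1 at -0.59 and STM1 at 0.98. In stationary phase 3 passed in limma in these 5 lists, where 4.76% of all genes tested did. RRB1, the chaperone of the RPL3 protein, fell by 2.25 ± 1.09 on 2 arrays (limma adjusted p = 0.046). TSR2, the chaperone of the RPS26 protein, rose by 2.25 ± 0.19 on 2 arrays (limma adjusted p = 0.020), and STM1, which clamps idle ribosomes, rose by 1.41 ± 0.49 on 3 (limma adjusted p = 0.036). TSR2 and STM1 lie on chromosome XII, and the authors' deposited table listed RRB1 at -0.23, TSR2 at 0.22 and STM1 at 0.28 in that phase and called none of them.

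The mitochondrial ribosomal proteins, a separate family that makes the ribosome of that organelle, had lower ratios than the cytosolic ones in mid-exponential phase, a difference that was not tested. Their array medians were -0.36, -0.53 and -0.57, a mean of -0.48 ± 0.11, where the cytosolic genes had -0.037 ± 0.051. Of 43 tested 0 passed in limma, 16 (37.2%) had an unadjusted p below 0.05 and 3 (6.98%) had a mean above 0, against 13.3% and 48.2% of all genes tested. The authors' deposited table called 9 of 67 lower and 0 higher, where it called 4.63% and 5.67% of all genes. In stationary phase the medians were 0.17, -0.16 and -0.02. MRPL16 alone passed there, higher by 2.03 ± 0.24 on 2 arrays (limma adjusted p = 0.032). The authors did not call MRPL16 in stationary phase, and their log2 fold change for it was -0.01.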

How the data were processed

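The authors deposited log2 ratios for each spot of each array. Per the submitters' processing notes they used R 2.9.2 and limma; how background was corrected, and how arrays were normalized and filtered, is not stated in the sources used here. Per the file headers, the authors also deposited a limma table per phase that gives log2 fold changes, t scores, raw and adjusted p-values and, in the stationary one, a linear fold ratio. Spots took gene names through printing plate wells, and 228 genes in row E of plates 10 to 19 had names that could not be relied on and were not used. Duplicate spots were averaged per gene. Set against the authors' log2 fold changes for bright genes, array means had slopes of 1.19 (r = 0.985) and 1.48 (r = 0.932), and the dye-swapped arrays were already turned. Chromosomes were read from systematic names.

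All 6 arrays entered 1 limma model (limma 3.58.1, R 4.3.3) with a mean per phase and 4 residual degrees of freedom. Each phase mean was tested two-sided against 0 for genes measured on 2 or more arrays in both phases, and p-values were adjusted by Benjamini-Hochberg over all 4289. The model was tested on simulated data. Plots were drawn with matplotlib 3.10.9 and tables made with pandas 2.3.3 and numpy 2.4.6 in Python 3.11.15. SDs are over arrays. Per the labels, replicates came from separate vessels, some of which served in both phases. The genes and lists were chosen with earlier results of these data known. Named were genes past the threshold, the stalk genes, and the 5 highest and 5 lowest means per phase among genes on its 3 arrays. Also named were the 5 highest and 5 lowest differences between phases among genes on all 6. The 5 widest pairs per phase with both copies on its 3 arrays and the 5 largest authors' calls per direction and phase were named too. Genes with a copy on chromosome XII, RPL42, RPL34B and RPL3 were added after their values were seen. RPS14B was added for its position, with its values known. Alternatives were another scaling, another centring, other filters, a dye term, separate fits, a replicate block and each array left out.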

Additional observations from a re-analysis of the deposited data

How the results depend on the processing

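The count of genes called in mid-exponential phase was 0 under every alternative run with limma on the arrays and 14 in the authors' deposited table. The stationary count of 1 became 0 with the arrays brought to one spread and with each phase fitted alone. It became 2 with arrays centred on genes outside chromosome XII, with genes on all 6 arrays only and with both duplicate spots required, each time with RPS22A added, and 8 in the authors' deposited table. With an array left out it ran from 0 to 6, and the 6 came without stationary array 2, the only stationary array with the dyes exchanged. RPS30B had an adjusted p of 0.075 at one spread and 0.27 fitted alone. The family's mid-exponential median became 0.014 when arrays were centred on genes outside chromosome XII, and its stationary median became -0.020 without stationary array 1. The large minus small difference in stationary phase became -0.060 under that centring, and the mid-exponential paralogue difference became 0.100 at one spread. For genes with a second copy on chromosome XII, a grouping and alternatives added after seeing the data, the mid-exponential median became 0.35 at one spread. RPL14A in stationary phase ran from -0.13 to 1.25 with an array left out, and RPL43B from -1.23 to 0.45, with 0.45 also when both duplicate spots were required. The cause was not tested beyond the arrays named. Of 233 values of named genes under alternatives, 217 kept direction and side of the threshold. Array numbers share vessels between phases in part: both on array 3, the mutant's on array 1 and the wild type's on array 2. Deviations of same-numbered arrays correlated at 0.08, 0.21 and -0.05, so the numbers were not taken as pairs. With the array number as a replicate block, 0 of the genes were called for the difference between phases. In stationary phase, where the family was dimmer, 103, 103 and 112 of its genes had a ratio on arrays 1, 2 and 3, against 112 on each mid-exponential array.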
